A study of Mus musculus with 9 samples.

Results

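The long noncoding RNAs (lncRNAs) examined here were Malat1, Meg3, Neat1, Miat, Snhg11, Rian and Mirg, 7 abundant RNAs of brain tissue chosen by name from the 55450 genes counted in mouse nigral tissue. Their symbols were matched to gene identifiers through the GENCODE M21 annotation, and their counts were compared across 3 groups of 3 RNA-seq libraries each. In the control group (CTR, labelled GFP) the substantia nigra of CX3CR1-CreERT2 mice, whose inducible Cre is expressed from the fractalkine receptor locus of microglia, received a Cre-inducible lentivirus with destabilized GFP. In the CX3 group (labelled CX3-Cre) the same mouse line received a Synuclein-expressing vector, and in the DAT group (labelled DAT-Cre) that vector was given to mice with Cre in Slc6a3, the dopamine transporter gene of dopaminergic neurons. In both vectors the insert stood under the Ef1a promoter in a FLEX configuration, which Cre turns into the sense direction. The study's text gives mice of 8 weeks in one place and male mice of 9 weeks in another, tissue dissected by hand 5 weeks after transduction, and tamoxifen for 4 days in the CX3CR1-CreERT2 mice only. DAT and CTR therefore differed in Cre line, tamoxifen, targeted cell and vector, and these cannot be told apart. How many animals gave each library is not stated in the sources used here, so the p-values measure the spread between libraries, which may be technical.

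Malat1 and Neat1 are neighbours on chromosome 19 and stay in the nucleus. Malat1 gathers in nuclear speckles, which hold splicing factors, and the long form of Neat1 is the scaffold of paraspeckles, bodies that retain RNA and proteins in the nucleus. Mature Malat1 and long Neat1 lack a poly(A) tail of the usual kind, while short Neat1 has one. Meg3, Rian and Mirg are transcribed in the same direction from the maternal copy of the imprinted Dlk1-Dio3 domain, in which Dlk1 and Rtl1 are made from the paternal copy, and they host microRNAs or small nucleolar RNAs (snoRNAs). Miat, also called Gomafu, is a nuclear RNA of neurons, and Snhg11 is a snoRNA host gene with high levels in brain.

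In GENCODE M21 (GRCm38) Malat1 lies on the minus strand at chr19:5795690-5802672 and Neat1 on the minus strand at chr19:5824708-5845478, each as 1 block of exons. Meg3 lies at chr12:109541001-109571726, Rian at chr12:109603940-109661716 and Mirg at chr12:109729764-109749460, all on the plus strand. Miat lies on the minus strand at chr5:112213228-112229395 and Snhg11 on the plus strand at chr2:158375638-158386145. Snhg11 is classed there as protein coding and Rian as a processed transcript, and the other 5 are classed as lincRNA. All isoforms together hold 6983 exon bases in Malat1, 18089 in Meg3, 20771 in Neat1, 9293 in Miat, 8521 in Snhg11, 18234 in Rian and 7292 in Mirg.

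The libraries were made with a kit that selects RNA by its poly(A), so runs of A within the annotated transcripts are shown. Whether the mature RNAs end where the annotated transcripts do was not examined, so a run may lie at the end of a mature RNA. The longest run in the longest annotated transcript was 16 bases in Meg3, 15 in Rian, 12 in Malat1, 8 in Snhg11, 7 in Neat1, 5 in Mirg and 4 in Miat. The 3 longest are printed with 15 bases on either side and the run in capitals, 5′ to 3′ on the strand of the gene, from the GENCODE M21 transcripts. The Meg3 window is chr12:109545802-109545847, the Rian window chr12:109652214-109652258 and the Malat1 window chr19:5795973-5796014, where the run ends 298 bases before the annotated 3′ end.
Meg3: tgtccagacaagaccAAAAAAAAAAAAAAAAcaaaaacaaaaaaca
Rian: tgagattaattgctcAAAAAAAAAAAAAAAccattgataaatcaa
Malat1: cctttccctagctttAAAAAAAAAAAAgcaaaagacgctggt
Whether RNA was captured at these runs was not tested.

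The hosted microRNAs mark bases that the host counts can lack, because a read on exons of more than 1 gene was counted for neither. RefSeq (GRCm38.p6) places 3 mature microRNAs inside Meg3, 6 inside Rian and 26 inside Mirg, the last from 14 hairpin genes and with 25 different seeds. The first 5 shown come from hairpins that lie on exons of the host, with the seed (bases 2 to 8) in capitals, and miR-453 and miR-496a-5p are added as the pair in Mirg that shares a seed.
miR-770-5p, in Meg3: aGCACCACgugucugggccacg
miR-134-5p, in Mirg: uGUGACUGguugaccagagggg
miR-485-3p, in Mirg: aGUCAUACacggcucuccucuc
miR-377-3p, in Mirg: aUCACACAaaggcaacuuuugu
miR-410-3p, in Mirg: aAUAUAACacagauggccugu
miR-453, in Mirg: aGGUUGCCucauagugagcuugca
miR-496a-5p, in Mirg: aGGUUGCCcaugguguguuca
The mature microRNAs themselves were not measured in these libraries.

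The promoters of 3 of the 4 lncRNAs that fell most in the DAT libraries are printed from RefSeq (GRCm38.p6), each as 300 bases of which the last 50 follow the annotated start. Windows were found for 6 of the 7 genes, Neat1 being the one without. The TATA box motif TATAAA, the motif CCAAT, the GC box motif GGGCGG and the cAMP response element TGACGTCA were searched on both strands, and matches are in capitals. The Meg3 window, chr12:109540746-109541045 on the plus strand, held CCAAT at position −100 from the start, TGACGTCA at −57 and TATAAA at −25, the last overlapping a match on the opposite strand at −29. The Miat window, chr5:112228899-112229198 on the minus strand, held GGGCGG on the opposite strand at −224, and the Snhg11 window, chr2:158375463-158375762 on the plus strand, held none of them.
Meg3: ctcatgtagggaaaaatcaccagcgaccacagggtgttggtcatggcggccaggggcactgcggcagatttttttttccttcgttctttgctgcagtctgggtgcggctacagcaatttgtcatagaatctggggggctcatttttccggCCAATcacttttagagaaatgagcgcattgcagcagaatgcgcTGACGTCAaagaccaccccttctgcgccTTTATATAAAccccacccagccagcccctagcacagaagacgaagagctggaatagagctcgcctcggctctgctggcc
Miat: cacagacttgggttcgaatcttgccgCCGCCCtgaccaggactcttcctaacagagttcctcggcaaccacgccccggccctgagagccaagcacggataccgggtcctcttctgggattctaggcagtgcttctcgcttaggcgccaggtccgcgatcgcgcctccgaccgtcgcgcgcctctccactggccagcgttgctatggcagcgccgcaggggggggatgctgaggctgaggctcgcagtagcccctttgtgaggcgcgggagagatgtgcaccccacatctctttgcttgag
Snhg11: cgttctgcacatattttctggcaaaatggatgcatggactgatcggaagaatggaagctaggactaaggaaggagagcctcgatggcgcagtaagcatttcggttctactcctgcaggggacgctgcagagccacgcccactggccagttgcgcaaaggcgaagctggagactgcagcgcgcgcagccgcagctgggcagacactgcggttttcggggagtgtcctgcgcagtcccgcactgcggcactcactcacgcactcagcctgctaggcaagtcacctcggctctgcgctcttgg
Of the 32851 promoter windows of that length, 13.6% held TATAAA, 37.4% CCAAT, 35.7% GGGCGG and 1.79% TGACGTCA. A second annotated Meg3 start and the starts of Rian and Malat1 held none of these motifs, and Mirg held CCAAT.

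Reads counted on genes ran from 29378008 to 35595813 in the CTR libraries, from 32892827 to 36586743 in CX3 and from 21592817 to 39475428 in DAT. Levels are given as CPM (counts of a gene relative to the total of its library) after scaling by TMM. That scaling sets most genes level between libraries. Without it, relative to all counts on genes, 3 counts corresponded to between 0.076 and 0.139 CPM. The lowest count of any of the 7 lncRNAs was 167, for Mirg in a DAT library. The share of uniquely aligned reads on no annotated gene was 9.82% to 10.01% in CTR, 8.36% to 9.47% in CX3 and 5.45% to 5.58% in DAT, and the share on more than 1 gene was 5.71% to 5.79%, 5.89% to 6.02% and 6.96% to 7.45%. The groups did not overlap in either share, and the part of these differences in the results was not tested.

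The 7 lncRNAs together took 0.631% to 0.649% of the counts on genes in the CTR libraries, 0.688% to 0.730% in CX3 and 0.205% to 0.212% in DAT. The CX3 libraries stood just above CTR and the DAT libraries far below both. In tissue of many cell types, fewer cells that carry an RNA and less of it per cell cannot be told apart.

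**Figure D1:**
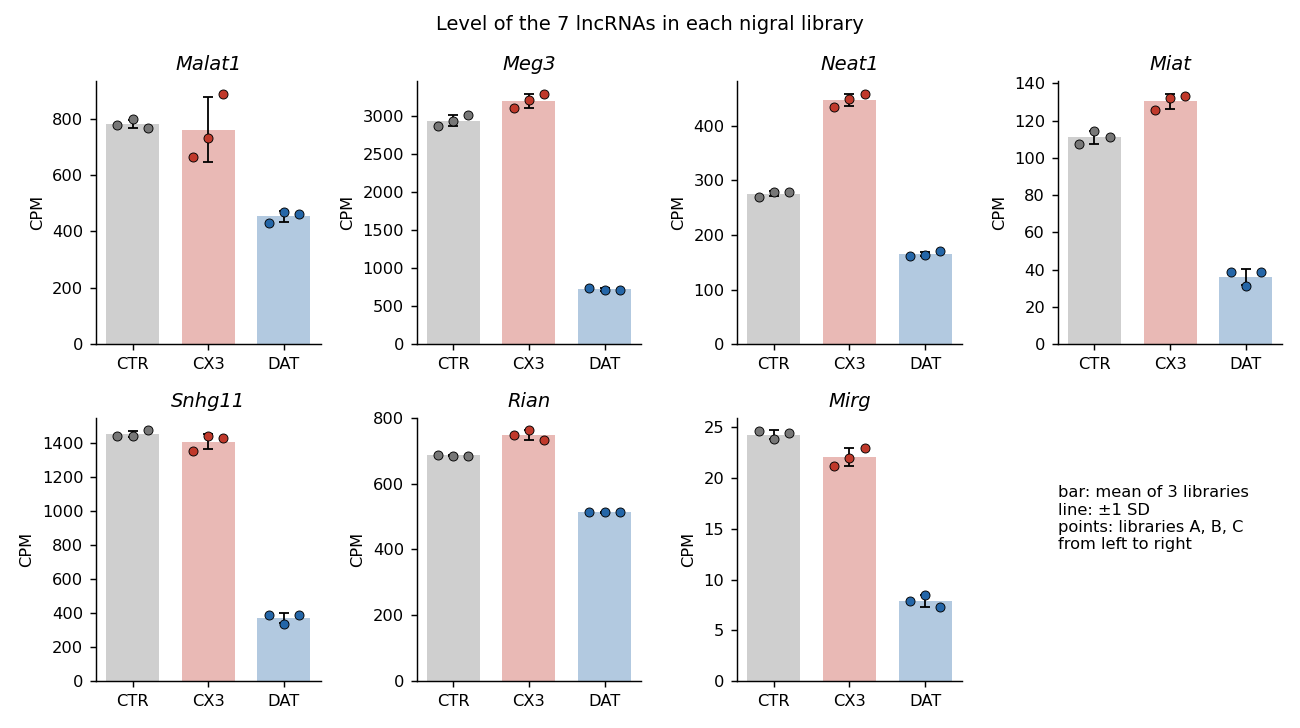
Level of each lncRNA in CPM (vertical axes, from 0) in the 3 libraries of the CTR, CX3 and DAT groups. Bars are means, lines are 1 SD and points are libraries A, B and C. All 7 lncRNAs were lowest in DAT, Neat1 was highest in CX3 with a mean of 447 CPM, and the CX3 libraries spread most for Malat1, from 664 to 889 CPM.

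Per kilobase of exon, the CTR libraries had the most Snhg11, at 171 ± 2.20 CPM per kb (SD, n = 3), followed by Meg3 at 162 ± 4.14, Malat1 at 112 ± 2.19, Rian at 37.6 ± 0.088, Neat1 at 13.3 ± 0.249, Miat at 11.96 ± 0.372 and Mirg at 3.33 ± 0.058. No neighbours in that order overlapped between libraries. Counts of 1 strand turned the order of Neat1 and Miat in CTR, with Miat at 15.3 and Neat1 at 12.3 CPM per kb for the reverse strand and 15.4 and 12.4 for the forward strand. In CX3, Meg3 stood first at 177 ± 5.11 CPM per kb and Snhg11 next at 166 ± 5.41, with the other 5 in the CTR order. In DAT, Malat1 came first at 65.0 ± 2.90 CPM per kb, before Snhg11 at 43.5 ± 3.49 and Meg3 at 39.9 ± 0.974, and the libraries of the last pair overlapped. These levels take all annotated exon bases as transcribed, which for Neat1 includes the part found only in its long form.

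To ask whether Synuclein expression in microglia moved these RNAs, CX3 was compared with CTR. Neat1, the paraspeckle RNA, rose 1.62-fold, and Miat, Rian and Meg3 rose 1.17-fold, 1.09-fold and 1.09-fold, while Malat1, Snhg11 and Mirg did not pass the test. With edgeR's quasi-likelihood test and Benjamini-Hochberg adjustment over 20892 genes, 4 of the 7 were called higher and none lower. DESeq2 gave the same count, and at an unadjusted p under 0.05 Mirg was lower. The test called 14.0% of all genes higher and 16.5% lower in this comparison (2923 and 3444 genes), a split that turned to 3958 and 2766 with libraries scaled by size alone, which called the same number of the 7. Only Neat1 rose by at least 1.5-fold, which 3.19% of all genes did.

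Neat1 was at 270, 279 and 278 CPM in CTR A, B and C, at 434, 449 and 457 CPM in the CX3 libraries and at 162, 163 and 170 CPM in DAT. Each CX3 library lay above every CTR library, and each DAT library below. The log2 fold change in CX3 against CTR was 0.70 ± 0.040 (SE, adjusted p = 1.7e-08 by edgeR's quasi-likelihood test), with a 95% interval of the fold from 1.53 to 1.71. Of the 10878 genes with a mean of at least 10 CPM, 0.441% rose by more. Behind these levels stood 8212 to 10159 counts per CTR library and 15554 to 17554 per CX3 library.

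Miat was at 108, 114 and 111 CPM in CTR and at 126, 132 and 133 CPM in CX3, and its log2 fold change was 0.23 ± 0.065 (adjusted p = 0.016, edgeR). Meg3 was at 2862, 2931 and 3012 CPM in CTR and at 3105, 3204 and 3290 CPM in CX3, with a log2 fold change of 0.12 ± 0.035 (adjusted p = 0.016, edgeR). Rian was at 687, 685 and 684 CPM in CTR and at 746, 762 and 734 CPM in CX3, with a log2 fold change of 0.12 ± 0.034 (adjusted p = 0.013, edgeR). For all 3 genes the CX3 libraries lay above every CTR library. The share of all genes whose libraries stood apart in this way was not counted. Miat shares 30.4% of its exon bases with other genes, and reads there were counted for neither. The calls of these small rises depended on single libraries. Without CTR A, or without CX3 B, only Neat1 was called, and without CTR B, CTR C or CX3 C 2 of the 7 were called higher. Tested against a change of 1.2-fold, 1 of the 7, Neat1, passed.

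Malat1 was at 777, 798 and 768 CPM in CTR and at 664, 731 and 889 CPM in CX3. The CX3 libraries thus fell on both sides of CTR, and CX3 C, the highest, had 34148 counts of Malat1 against 25578 in CX3 A and 25301 in CX3 B. The log2 fold change was −0.04 ± 0.078 (adjusted p = 0.76, edgeR), a level at 97.5% of CTR, with a 95% interval from 0.922 to 1.14 for CTR divided by CX3. Without CX3 C, Malat1 was called lower, at −0.16 ± 0.054 (adjusted p = 0.046, edgeR), and without CX3 A its value was 0.05 ± 0.068, so that its direction turned with the library left out. It turned as well with library size alone, at 0.01, and with counts of 1 strand, at 0.10 and 0.11 for the reverse and the forward strand. Counts of 1 strand give Malat1 the reads it shares with a gene annotated on its opposite strand along 453 exon bases.

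Snhg11 was at 1445, 1446 and 1478 CPM in CTR and at 1358, 1445 and 1429 CPM in CX3, with a log2 fold change of −0.05 ± 0.050 (adjusted p = 0.53, edgeR) that was 0.00 when libraries were scaled by their size alone. Mirg was at 24.6, 23.8 and 24.4 CPM in CTR and at 21.2, 21.9 and 23.0 CPM in CX3. Its log2 fold change of −0.14 ± 0.058 missed the threshold (adjusted p = 0.086, edgeR) although the libraries did not overlap, and it passed with reverse-strand counts (adjusted p = 0.037) and with the 6 libraries alone (adjusted p = 0.045).

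To ask what was seen when the same vector was given to mice with Cre in dopaminergic neurons, DAT was compared with CTR, a comparison that shares the CTR libraries with the one above. All 7 lncRNAs fell. Meg3 and Snhg11 fell to 24.6% and 25.5% of the CTR level, Mirg and Miat to 32.4% and 32.6%, Malat1 to 58.1%, Neat1 to 59.9% and Rian to 74.8%. In this comparison 27.9% of all genes were called lower and 32.0% higher by the same test. By at least 1.5-fold, 6 of the 7 were lower, all but Rian, as were 17.3% of all genes.

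Meg3, at 2862 to 3012 CPM in CTR, was at 742, 709 and 716 CPM in DAT A, B and C. Its log2 fold change was −2.02 ± 0.037 (adjusted p = 2.6e-14, edgeR), and 0.708% of the 10878 genes of at least 10 CPM fell by more. Snhg11 was at 389, 336 and 387 CPM in DAT, which gave −1.97 ± 0.052 (adjusted p = 1.4e-12, edgeR). For both genes the highest DAT library lay far below the lowest CTR library. The order per kilobase, in which they led in CTR and followed Malat1 in DAT, changed accordingly.

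Miat was at 38.7, 31.0 and 38.6 CPM in DAT and its log2 fold change was −1.62 ± 0.071 (adjusted p = 2.1e-10, edgeR). Mirg was at 7.84, 8.45 and 7.33 CPM, from 286, 168 and 167 counts, and its log2 fold change was −1.63 ± 0.068 (adjusted p = 1.4e-10, edgeR). DAT B was the lowest library for Miat and the highest for Mirg.

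Malat1 was at 431, 470 and 460 CPM in DAT, with a log2 fold change of −0.78 ± 0.079 (adjusted p = 1.0e-06, edgeR). Neat1 fell by 0.74 ± 0.041 on the log2 scale (adjusted p = 2.2e-09, edgeR). Rian was at 512, 512 and 514 CPM, an SD of 0.753 CPM, and fell by 0.42 ± 0.034 (adjusted p = 1.1e-07, edgeR). The DAT libraries of these 3 genes lay below every CTR library. Scaled by library size alone, the median of all genes moved to −0.15 in this comparison, with 4890 genes higher and 8045 lower in place of 6686 and 5834, and with TMM over protein-coding genes it moved to −0.13, with 5175 higher and 7619 lower. All 7 lncRNAs fell by more than those medians, Rian least, by 0.57 with library size alone.

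**Figure D2:**
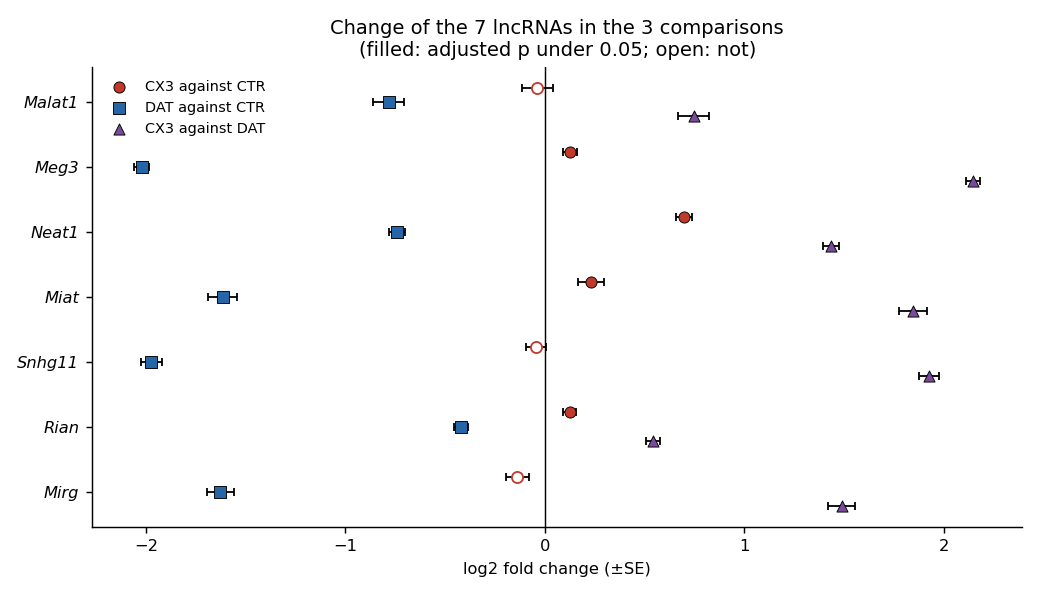
Log2 fold change (horizontal axis, with its SE) of each lncRNA in the 3 comparisons, filled where the adjusted p was under 0.05 and open where it was not. The squares for DAT against CTR all lie left of 0, from −2.02 to −0.42, while the circles for CX3 against CTR lie between −0.14 and 0.70, with Malat1, Snhg11 and Mirg open.

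CX3 and DAT received the same vector in different mouse lines. Compared directly, all 7 lncRNAs were higher in CX3, by 4.43-fold for Meg3, 3.80-fold for Snhg11, 3.60-fold for Miat, 2.81-fold for Mirg, 2.71-fold for Neat1, 1.68-fold for Malat1 and 1.46-fold for Rian. The largest adjusted p of the 7 was 1.7e-06, for Malat1 (edgeR). Of all genes 27.6% were called higher and 31.3% lower, and 6 of the 7 were higher by at least 1.5-fold, as were 16.0% of all genes. With library size alone the median of all genes was 0.20 and the genes called were 8916 higher and 4444 lower in place of 5767 and 6544, and with TMM over protein-coding genes 7503 and 5285 around a median of 0.12. The smallest difference among the 7 with library size alone was 0.74, for Rian.

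**Figure D3:**
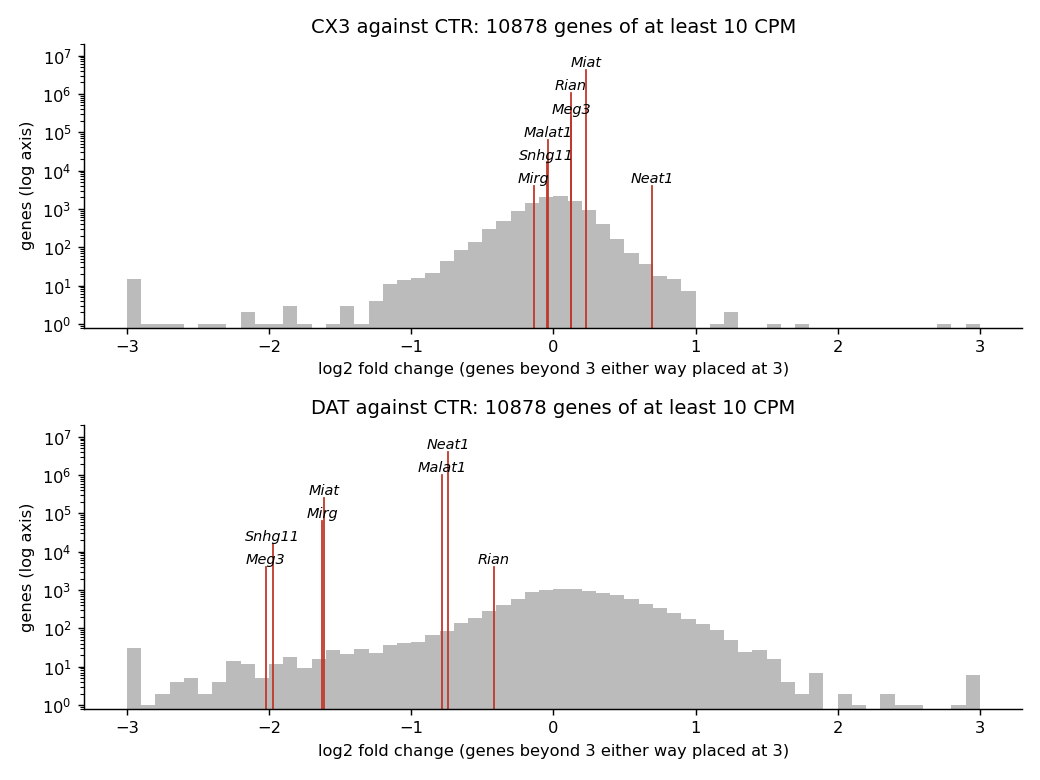
Distribution of the log2 fold changes of the 10878 genes with a mean of at least 10 CPM (grey, vertical axis on a log scale) in CX3 against CTR and in DAT against CTR, with the 7 lncRNAs marked by red lines whose height has no meaning. In DAT against CTR the lines stand on the left, from −2.02 to −0.42, and in CX3 against CTR Neat1 stands apart from the other 6 at 0.70.

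Meg3, Rian and Mirg lie one after another in the Dlk1-Dio3 domain, yet they fell in DAT by 2.02, 0.42 and 1.63 on the log2 scale. Of 6 tested coding neighbours, 5 were called higher and 1 lower in DAT against CTR, with a median log2 fold change of 0.53, where the median of all genes was −0.0038. The shares over all genes were 32.0% higher and 27.9% lower. Dlk1, a membrane ligand related to those of Notch and made from the paternal copy, was at 44.9 to 45.5 CPM in CTR, 69.1 to 71.3 CPM in CX3 and 119 to 138 CPM in DAT. Its groups did not overlap, and it rose in both comparisons, by log2 fold changes of 0.63 in CX3 and 1.53 in DAT. Rtl1, a retrotransposon-derived coding gene of the paternal copy, fell in DAT by 0.31 ± 0.12 on the log2 scale (adjusted p = 0.033, edgeR).

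Beside the domain, Wars, a tryptophan tRNA synthetase, and Begain, a protein of synapses, rose in DAT with log2 fold changes of 0.71 and 0.53. Wdr25 (0.53) and Ppp2r5c, a phosphatase subunit (0.13), were called higher as well, the latter turning to −0.02 with library size alone. In CX3 against CTR 4 of the 6 neighbours, Dlk1, Begain, Wdr25 and Ppp2r5c, were called higher, as were 14.0% of all genes. The deiodinase gene Dio3 and its antisense gene Dio3os were too low to be tested.

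**Figure D4:**
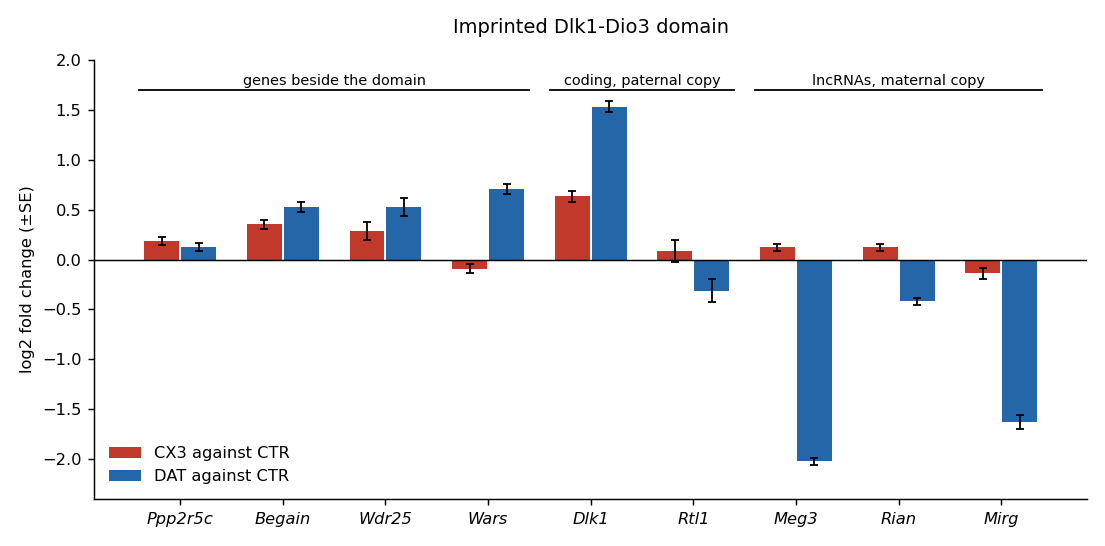
Log2 fold changes with SE (vertical axis) of the tested genes in and beside the Dlk1-Dio3 domain, in CX3 against CTR (red) and DAT against CTR (blue). In DAT, Dlk1 rose by 1.53 while Meg3, Rian and Mirg fell by 2.02, 0.42 and 1.63, and in CX3 the changes of the lncRNAs lie between −0.14 and 0.12.

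Genes annotated inside the hosts had few counts. Gm26945, a lincRNA gene inside Rian, was at 3.43 to 3.71 CPM in CTR, 1.82 to 1.98 CPM in CX3 and 0.453 to 0.834 CPM in DAT. It fell in CX3 (−0.92 ± 0.14, adjusted p = 0.00028, edgeR), where Rian itself rose. Mir1188, a hairpin in an intron of Rian, had 25 to 42 counts in CTR and 4 to 17 in DAT, and fell by 1.58 on the log2 scale (adjusted p = 0.0013, edgeR). Gm25129, a snoRNA gene inside Snhg11, had 82 to 104 counts in CTR and 13 to 26 in DAT and fell by 1.90 (adjusted p = 1.8e-05, edgeR). Of 33 genes that share exon bases with one of the 7, 29 had 0 counts in all 9 libraries. Reads on shared bases go to no gene, and the part of this in the counts of 0 was not tested.

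Coding neighbours of Neat1 and Malat1 were compared in the same way. In CX3 against CTR edgeR called none of 5 tested neighbours, nor did DESeq2, and at an unadjusted p under 0.05 1 was higher and 1 lower. In DAT against CTR Ltbp3, a TGF-beta binding protein, rose by 0.66 on the log2 scale, Ehbp1l1 by 0.24, and Slc25a45, a mitochondrial carrier, fell by 0.59. Frmd8, next to Neat1, was at 62.7 to 66.9 CPM in CTR and 58.5 to 62.5 CPM in DAT (adjusted p = 0.055, edgeR), and Tigd3 was not called. With library size alone 1 of the 5 was called higher and 2 lower. The median of the 5 was 0.22 in DAT against CTR. With TMM, 2 of the 5 were higher and 1 lower in DAT, near the shares over all genes of 32.0% and 27.9%.

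The proteins of the bodies that hold these RNAs were compared as well. Of 13 paraspeckle protein genes, 6 were lower in CX3, among them Hnrnpk (−0.17), Ewsr1 (−0.18) and Nono (−0.17), where Neat1 was higher, and the list had a median of −0.12. In DAT 5 were lower and 1 higher, with a median of −0.06, and with library size alone 9 were lower. Of 10 nuclear speckle protein genes, 9 were lower in DAT, among them Ddx5 (−0.32), Son (−0.38) and Srsf5 (−0.60), with a median of −0.34, and 4 were lower in CX3, with a median of −0.10. Over all genes tested, 16.5% were lower in CX3 and 27.9% in DAT, and the 5 of 13 paraspeckle genes lower in DAT stood near that share.

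Other lncRNAs were read from lists of their own. Of 11 tested snoRNA host genes other than Snhg11, 9 were lower in DAT, among them Gas5 (−0.71), Snhg20 (−0.92), Snhg8 (−0.54) and Snhg12 (−0.40), with a median of −0.57, and 2 were higher in CX3. Of 17 other brain lncRNAs, 9 were lower and 5 higher in DAT, with a median of −0.37. The most abundant of these, 2900097C17Rik, rose in DAT by 0.49, as did 1700020I14Rik by 0.32, while Tug1 had a log2 fold change of 0.0011 and Sox2ot one of −0.11 (adjusted p = 0.077, edgeR). In CX3 9 of the 17 were higher and 1 lower, with a median of 0.17. The shares over all genes were 27.9% lower and 32.0% higher in DAT, near that of the 5 of 17 higher there, and 14.0% higher in CX3, near that of the 2 of 11 snoRNA host genes.

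Among 5 tested lncRNAs of other imprinted loci, 2 rose and 2 fell in DAT, near the shares over all genes of 32.0% and 27.9%. Kcnq1ot1, at 55.5 to 58.9 CPM in CTR and 14.7 to 18.3 CPM in DAT, fell by 1.75 on the log2 scale, and Snhg14 by 0.63, while Peg13 rose by 0.92. H19 was called higher at 2.42, with DAT libraries between 2.61 and 24.7 CPM that overlapped CTR. In CX3 against CTR edgeR called none of the 5, nor did DESeq2, and none had an unadjusted p under 0.05. Of 3 tested lncRNAs known to rise in inflammation all fell in DAT, from levels near 1 CPM or below, and in CX3 edgeR and DESeq2 called none while 1 was higher at an unadjusted p under 0.05.

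Since Malat1 and long Neat1 lack a usual poly(A) tail, other RNAs without one were examined. Rn7sk, a small nuclear RNA, was at 1.04 to 1.57 CPM in CTR, 1.38 to 2.97 CPM in CX3 and 26.3 to 29.3 CPM in DAT, while the histone RNA Hist1h2bc fell in DAT by 0.66. Of the 5 tested, 2 were higher and 2 lower in DAT, near the shares over all genes of 32.0% and 27.9%. In CX3 2 of these RNAs were lower, where 16.5% of all genes were. The part of such RNA in the levels of Malat1 and Neat1 was not tested.

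Cell type markers moved with the groups. Of 8 neuron markers, 7 were called higher in DAT, as were 32.0% of all genes. The 8 summed to 4156 to 4187 CPM in CTR, 4278 to 4408 CPM in CX3 and 5784 to 5998 CPM in DAT. Set against this sum, Meg3 was at 70.4% ± 1.54 in CTR, 73.5% ± 1.07 in CX3 and 12.2% ± 0.178 in DAT (SD, n = 3), and Snhg11 at 34.9% ± 0.311, 32.4% ± 0.612 and 6.27% ± 0.390. On that scale the DAT level was 0.174 times CTR for Meg3, 0.179 for Snhg11, 0.229 for Miat and Mirg, 0.410 for Malat1, 0.422 for Neat1 and 0.527 for Rian.

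The dopaminergic markers of the nigra, Slc6a3 and Ddc among them, were present in all libraries, and of 6 tested 5 were higher in CX3 and 4 lower and 1 higher in DAT, the last, Slc18a2, turning from 0.12 to −0.03 with library size alone. GABAergic markers were higher in DAT in 3 of 3 and glutamatergic ones in 1 of 2. Over all genes, 14.0% were higher in CX3, and 32.0% were higher and 27.9% lower in DAT. Astrocyte markers summed to 4213 to 4245 CPM in CTR, 2268 to 2374 in CX3 and 2413 to 2487 in DAT. Of 5 tested, 5 were called lower in CX3 and 3 in DAT, where 16.5% and 27.9% of all genes were. In DAT Gfap (−1.15 on the log2 scale) and Aqp4 (−0.84) fell most. Gja1 was at −0.15 there and Slc1a3 at −0.04 (adjusted p = 0.46, edgeR). Microglia markers summed to 690 to 698 CPM in CTR, 458 to 463 in CX3 and 451 to 463 in DAT. Oligodendrocyte markers ran from 20179 to 20259 CPM in CTR, from 21399 to 21789 in CX3 and from 14592 to 15524 in DAT, and precursor markers from 90.0 to 91.8, from 74.1 to 77.9 and from 116 to 124. Endothelial markers ran from 129 to 131, from 184 to 193 and from 248 to 254 CPM.

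Markers of tissue other than the nigra differed too. Choroid plexus markers summed to 28.2 to 30.7 CPM in CTR, 1446 to 1558 in CX3 and 840 to 1009 in DAT, pituitary markers to 57.5 to 60.1, 2.97 to 3.09 and 15.1 to 20.97, with Prl at 0 in all DAT libraries, and cerebellar granule markers to 1.03 to 1.46, 2.08 to 2.47 and 12.8 to 17.2. Erythroid markers summed to 201 to 222, 80.0 to 91.3 and 159 to 227 CPM, T cell markers to 29.4 to 31.9, 25.5 to 27.4 and 7.11 to 8.47 CPM, and B or plasma cell markers to 301 to 319, 71.7 to 76.4 and 10.05 to 13.03 CPM. Of 8 interferon response genes, 7 were lower and 1 higher in CX3, against 16.5% and 14.0% of all genes. In DAT 8 were lower, against 27.9% of all genes. The part of these differences in the levels of the lncRNAs was not tested.

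The genes most like each lncRNA in their course over the 9 libraries were taken by the root-mean-square difference of log2 CPM around each gene's mean, among 10594 named genes of at least 10 CPM. Rian had the closest, Zranb2, Zfp286 and Crebzf, at 0.031, 0.035 and 0.038. For Mirg they were Xaf1, Clk4 and Zcchc7, from 0.053 to 0.057. Meg3 and Snhg11 appeared in each other's list, at 0.105, with Gbp3 (0.088) and C78859 (0.096) nearer to Meg3 and AU020206 (0.096) and Kcnq1ot1 (0.104) nearer to Snhg11. Kcnq1ot1 and AU020206 also stood nearest to Miat, at 0.075 and 0.089, followed by Tap1 at 0.125. Neat1 ran closest to Tnfsf10 (0.084), Chrna6 (0.102) and Rgs5 (0.121), and Malat1 to Srsf11 (0.085), Rmdn1 (0.090) and Metap1d (0.091). The measure takes in the differences between the 3 groups as well as those between libraries of a group.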

How the data were processed

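RNA from nigral tissue was sequenced in 9 libraries, 3 per group. The authors trimmed reads with Trimmomatic, aligned them to mm10 with STAR and deposited counts per gene, not normalized. The columns of the files are those that STAR writes itself, although featureCounts is named in the study's methods. The kit is named as stranded, but each strand held about the same share of the counts (reverse strand 49.8% to 49.9%), so counts of both strands were used and a gene cannot be told from one on the opposite strand. Genes were named through GENCODE M21.

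Genes passing edgeR's filterByExpr (20892 of 55450) were scaled by TMM and tested with edgeR 4.0.16 (quasi-likelihood, 1 fit over 9 libraries, R 4.3.3), with Benjamini-Hochberg adjustment over all of them. A gene was called at an adjusted p under 0.05. Alternatives were DESeq2 1.42.0, other scalings, filters and strand columns, a replicate block, a test against a 1.2-fold change, 6 libraries alone and each library left out. SE is the log2 fold change divided by the root of F. The smallest two-sided exact permutation p for 3 against 3 libraries is 0.1, so none is given. The share of all genes with groups that did not overlap was not counted. Statements that libraries did not overlap thus describe them and are no test. No pair of libraries in a group was alike within sampling noise, with a spread 1.45 to 16.3 times that of sampling. Other steps used Python with pandas and matplotlib. The code was tested on simulated data.

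The members and lists were chosen with earlier results of these data known. From the lists, 1 gene was left out and is not reported here. Named are the 7 lncRNAs, tested neighbours, genes inside a member whose counts bear on it, at most the 4 most abundant genes of another list, and 3 most similar genes per lncRNA.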

Additional observations from a re-analysis of the deposited data

Results flagged for a closer look

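Meg3, Neat1, Miat and Rian moved in opposite directions in the 2 groups given the Synuclein-expressing vector, rising against CTR in CX3 and falling against CTR in DAT. The direct test of that difference, CX3 against DAT by edgeR, gave log2 fold changes of 2.15 for Meg3, 1.44 for Neat1, 1.85 for Miat and 0.54 for Rian, the CX3 libraries lying above every DAT library for each. The rises in CX3 were not equally firm. Neat1 was called in all 20 alternatives, whereas Meg3, Miat and Rian each lost the call in 5 of them, for example without CTR A (adjusted p = 0.096, 0.081 and 0.056 by edgeR) and against a 1.2-fold change. The 2 comparisons share the CTR libraries, and the Cre line and tamoxifen differed between CX3 and DAT as well as the targeted cell.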

How the results depend on the processing

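In DAT against CTR and in CX3 against DAT, all 7 lncRNAs kept direction and call in each of the 20 alternatives, leaving out each library included. In CX3 against CTR, of 140 values of single lncRNAs 117 kept direction and side of the threshold, 15 of Meg3, Miat and Rian lost the call, 3 of Malat1 and Mirg gained one and 5 of Malat1 and Snhg11, neither called, changed sign. The number called there was 1 when tested against a 1.2-fold change, and 1 to 4 with 1 library left out. Tested against a 1.2-fold change, all genes called were 1763 in CX3 against CTR, 8228 in DAT against CTR and 7989 in CX3 against DAT, in place of 6367, 12520 and 12311, as that test asks for a larger change. TMM over protein-coding genes was added after the data were seen. With genes of at least 1 count tested, the median of all genes was −0.49 in DAT against CTR and −0.13 in CX3 against CTR. The replicate letters do not pair the libraries: same-letter correlations of deviations ran from −0.16 to 0.04, and with a replicate block 4, 7 and 7 of the lncRNAs and 5805, 12144 and 11955 genes were called. Reads shared with overlapping genes limit the levels: with forward-strand counts Miat rose to 144 CPM in CTR from 111, and Malat1 to 923 from 781.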

Other observations

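The lincRNA biotype as a whole was read after the values of the 7 lncRNAs were seen and is given as a description. Of 929 tested lincRNA genes other than these, 312 (33.6%) were called lower and 90 (9.69%) higher in DAT against CTR. Their median log2 fold change was −0.34. In CX3 against CTR 118 (12.7%) were higher and 34 (3.66%) lower, with a median of 0.13. Over all genes, 27.9% were lower and 32.0% higher in DAT, and 14.0% were higher and 16.5% lower in CX3. The 118 higher in CX3 thus stood near the share over all genes. Among 58 with at least 10 CPM, 25 (43.1%) were lower and 17 (29.3%) higher in DAT, with a median of −0.07. The 17 stood near the share over all genes. In CX3 23 (39.7%) of the 58 were higher and 5 (8.62%) lower, with a median of 0.12. Of 15830 protein-coding genes 3849 were lower and 6388 higher in DAT, with a median of 0.09. In CX3 2564 of these were higher and 2937 lower, with a median of 0.0023.

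Outside the naming rule and chosen for their values, Mir124a-1hg, the host gene of a neuronal microRNA, was at 77.5 to 81.8 CPM in CTR, 100.1 to 102.1 CPM in CX3 and 17.6 to 20.01 CPM in DAT. Ftx, a lncRNA of the X inactivation centre, was at 33.2 to 35.8 CPM in CTR, 26.1 to 28.8 CPM in CX3 and 6.89 to 7.60 CPM in DAT.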
